A study of Mus musculus with 9 samples.

Results

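Cathepsins are the proteases of endosomes and lysosomes, and 8 of them (*Ctse*, *Ctsb*, *Ctsc*, *Ctsd*, *Ctsh*, *Ctsl*, *Ctss*, and *Ctsz*), chosen by symbol from the 31053 genes of the count table, were followed across the cells of mouse bone marrow. The marrow came from the femurs of 9 female mice aged 9 to 10 weeks, 3 each of the strains NZB and NZW and of their hybrid NZBWF1, a spontaneous model of lupus. Each mouse gave 1 library, in which RNA was captured from single cells in droplets and counted as unique molecular identifiers (UMIs). Strain is the only factor in the labels, so a difference between NZB and NZW is a difference between inbred strains, and the hybrid carries a genome copy of each.

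Most of these proteases are cysteine proteases, while *Ctsd* and *Ctse* encode aspartic proteases. In antigen-presenting cells cathepsins degrade endocytosed protein and the invariant chain that blocks the groove of class II molecules, the last steps of which depend on cathepsin S in B cells and dendritic cells. Cathepsin C activates the serine proteases of granules in neutrophils and mast cells, cathepsin D is the general aspartic protease of lysosomes, and cathepsin E is an endosomal enzyme also known from stomach and from erythrocyte membranes.

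Cells were assigned to classes by marker genes that include none of the 8 cathepsins. Of 37593 cells kept, 34011 (90.47%) passed a gate, and 17 classes were compared, from 125 basophil or mast cell-like to 8196 immature neutrophil-like cells. Names end in "-like" because they rest on transcripts alone. UMIs of the kept cells ranged from 7860085 to 17326509 per mouse, and 160 of 37431 distinct barcodes occurred in 2 or more mice. Levels are counts per 1000000 UMIs of the class in a mouse (CPM), and ± beside a level is the SD over mice. The SE beside a log2 fold is the unsigned fold divided by the square root of the F statistic of its test. It is an approximation, and with few UMIs it can be smaller than counting error alone. A sum over a class cannot tell fewer cells with a transcript from less of it in each cell. In the macrophage-like class, markers of immature neutrophils summed to 36730 to 95760 CPM in NZB, 27080 to 75670 CPM in NZW, and 27000 to 54700 CPM in NZBWF1. Those of erythroblasts summed to 357 to 817 CPM in NZB, 144 to 515 CPM in NZW, and 78.8 to 293.5 CPM in NZBWF1. Their part in the cathepsin values of the class was not tested.

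The genes were located in GRCm38 (mm10, the build of the submitters' processing notes) with GENCODE vM21. *Ctse* (chr1:131638306-131675505, plus strand) has 2 annotated coding starts and overlaps no other gene. *Ctsc* (chr7:88278085-88310888, plus) and *Ctsd* (chr7:142375911-142388038, minus) share a chromosome. *Ctsz* lies at chr2:174427493-174439039 (minus), *Ctss* at chr3:95526786-95556403 (plus), *Ctsh* at chr9:90054152-90076089 (plus), *Ctsl* at chr13:64359337-64370890 (minus), and *Ctsb* at chr14:63122462-63145923 (plus). Annotated genes overlap *Ctsd* (Gm49369), *Ctsl* (Gm49230), and *Ctss* (Hmgb1-ps5) on the same strand, so a share of their reads is uncertain.

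RefSeq promoters (GRCm38.p6, from 250 bases before to 50 after the start) were matched for 5 of the 8 genes. Those of *Ctsc*, *Ctss*, and *Ctsl* are shown 5′ to 3′ as examples of genes that differed between the parents. All were higher in NZB plasmacytoid dendritic cell-like cells, and *Ctsl* was also lower in NZB erythroid cells. The examples were chosen after the values were seen. Capitals mark matches, on either strand, to GAGGAA, a core of sites for PU.1 and other ETS factors, which reads TTCCTC on the other strand. They also mark CACGTG, the E-box. The third motif searched was AGATAA, bound by GATA factors.
Ctsc, chr7:88277835-88278134, plus strand: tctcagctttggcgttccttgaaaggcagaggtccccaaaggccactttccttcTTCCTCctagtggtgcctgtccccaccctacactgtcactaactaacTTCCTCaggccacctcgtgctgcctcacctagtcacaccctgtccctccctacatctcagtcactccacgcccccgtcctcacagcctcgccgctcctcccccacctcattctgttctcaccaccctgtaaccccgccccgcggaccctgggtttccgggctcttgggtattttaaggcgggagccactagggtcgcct
Ctss, chr3:95526536-95526835, plus strand: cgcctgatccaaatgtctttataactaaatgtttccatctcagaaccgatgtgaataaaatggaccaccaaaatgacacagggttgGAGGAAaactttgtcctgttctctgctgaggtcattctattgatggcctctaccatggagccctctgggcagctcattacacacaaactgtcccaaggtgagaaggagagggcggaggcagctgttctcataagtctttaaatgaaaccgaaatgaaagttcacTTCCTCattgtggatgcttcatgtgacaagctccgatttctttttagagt
Ctsl, chr13:64370471-64370770, minus strand: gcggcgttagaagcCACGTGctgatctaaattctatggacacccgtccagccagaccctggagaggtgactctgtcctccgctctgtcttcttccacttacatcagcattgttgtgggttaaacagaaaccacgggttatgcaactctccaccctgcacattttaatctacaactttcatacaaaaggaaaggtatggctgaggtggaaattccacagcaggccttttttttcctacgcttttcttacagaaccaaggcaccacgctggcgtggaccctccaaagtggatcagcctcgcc
GAGGAA occurs 2 times each in the *Ctsc* and *Ctss* windows and in 28.3% of the 32851 promoters of the table. CACGTG occurs 1 time in the *Ctsl* window and in 7.15% of promoters, and the GATA motif, held by 11.2% of promoters, is in none of these 3 windows. The *Ctsl* window lies inside the annotated span of the gene, which has 4 annotated coding starts, and windows of its other starts were not searched. The matches are letters of the reference genome, and no binding was measured.

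Each cathepsin had its own distribution over the marrow. Plasmacytoid dendritic cell-like cells held the highest mean level of *Ctsh* (1246 ± 170.0 CPM, n = 9), *Ctsl* (1594 ± 221 CPM, n = 9), and *Ctsz* (564 ± 64.5 CPM, n = 9), and nonclassical monocyte-like cells that of *Ctss* (2025 ± 314 CPM, n = 8). Macrophage-like cells came first for *Ctsb* (1757 ± 428 CPM, n = 9) and *Ctsd* (1750 ± 461 CPM, n = 9), monocyte-like cells for *Ctsc* (532 ± 235 CPM, n = 9), and erythroblast-like cells for *Ctse* (851 ± 61.7 CPM, n = 9). The first class was not the same in each strain. Pooled over mice, *Ctsb* in plasmacytoid dendritic cell-like and macrophage-like cells was at 1707 and 1355 CPM in NZB. It was at 1467 and 2064 CPM in NZW and 1607 and 1717 CPM in NZBWF1. *Ctsz* in plasmacytoid dendritic cell-like and nonclassical monocyte-like cells was at 534 and 576 CPM in NZW, 557 and 394 CPM in NZB, and 577 and 441 CPM in NZBWF1. The plot of levels by class sets these distributions side by side.

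**Figure D1:**
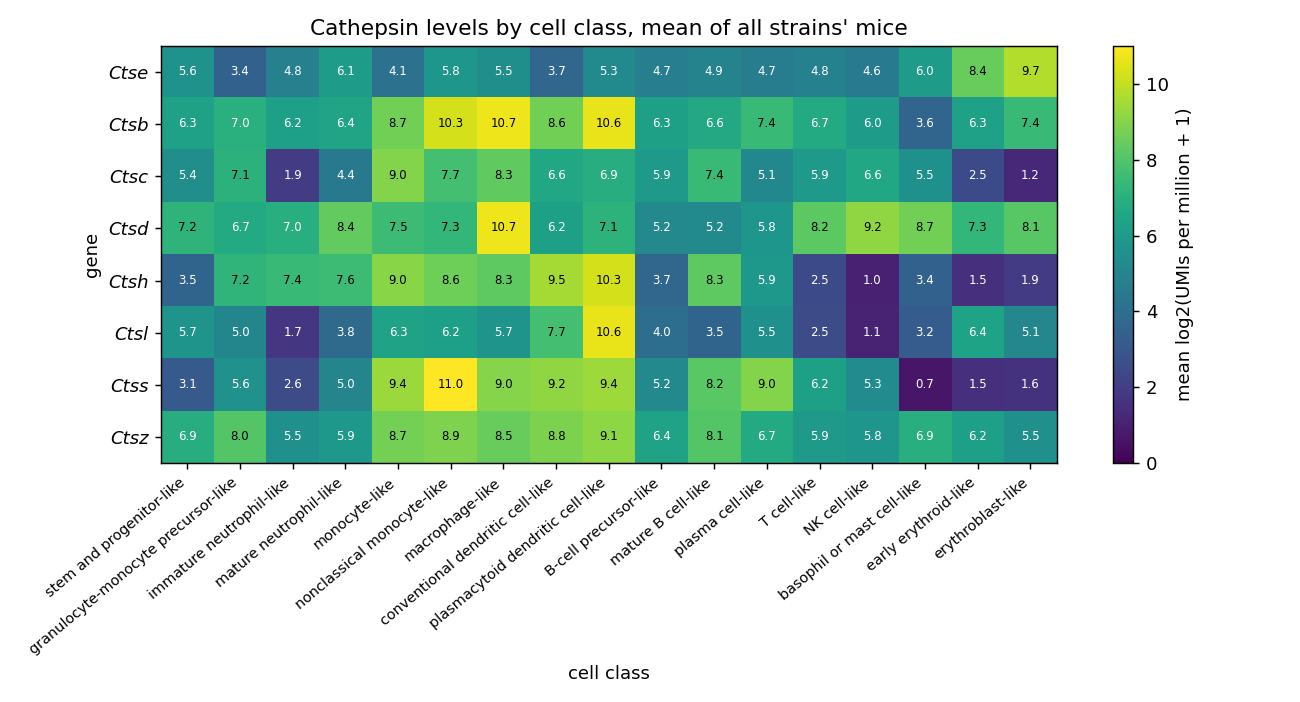
Mean over mice of log2(CPM + 1) for 8 cathepsins (rows) in 17 cell classes (columns), with the color and the printed number giving the same value. *Ctse* is highest in the erythroid columns, *Ctsh* and *Ctsl* in plasmacytoid dendritic cell-like cells, and *Ctss* in nonclassical monocyte-like cells.

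Classes were ordered for each gene by mean log2(CPM + 1), and each was compared with the next within mice by an exact two-sided sign-flip permutation test, adjusted over the 16 neighbouring pairs of the gene. Of 128 pairs, 14 differed, so most neighbours in these orders are not resolved. For *Ctse*, erythroblast-like exceeded early erythroid-like cells by 1.31 ± 0.23 (log2 difference, SD) in 9 of 9 mice (exact test, adjusted p = 0.0312), and these exceeded mature neutrophil-like cells by 2.35 ± 1.60 in 9 of 9 mice (exact test, adjusted p = 0.0312). By strain this second step was 4.41 ± 0.27 for NZB mice, 0.92 ± 0.32 for NZW mice, and 1.73 ± 0.17 for NZBWF1 mice. For *Ctsl*, plasmacytoid exceeded conventional dendritic cell-like cells by 2.92 ± 0.47 in 8 of 8 mice (exact test, adjusted p = 0.0417). For *Ctsh*, the steps from plasmacytoid to conventional dendritic cell-like cells (0.76 ± 0.30) and on to monocyte-like cells (0.46 ± 0.23) both passed in 8 of 8 mice (exact test, adjusted p = 0.0208). For *Ctss*, nonclassical monocyte-like exceeded plasmacytoid dendritic cell-like cells by 1.64 ± 0.31 in 8 of 8 mice, and plasma cell-like exceeded mature B cell-like cells by 0.74 ± 0.37 in 8 of 8 (exact test, adjusted p = 0.0417 each). The pairs of *Ctsb*, *Ctsc*, *Ctsd*, and *Ctsz* did not pass. In *Ctsd*, for example, macrophage-like exceeded NK cell-like cells by 1.55 ± 0.60 in 9 of 9 mice (exact test, adjusted p = 0.0625). In *Ctsc*, mature neutrophil-like exceeded early erythroid-like cells by 1.97 ± 0.81 in 9 of 9 mice (exact test, adjusted p = 0.0625). Both pairs were at the smallest unadjusted p that 9 mice can give (exact test, p = 0.0039). A single pair of 16 at that value adjusts to 0.0625, so neither could pass alone. The number of pairs that differed fell to between 0 and 9 when any mouse was left out, which also raises the smallest p that the test can give.

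NZB and NZW were compared first. Of 136 combinations of 17 classes and 8 genes, 103 passed the filter on low counts, and 28 of these passed an adjusted p of 0.05, 12 higher and 16 lower in NZB. Over all genes and classes 7.96% of tests passed, 3.98% as higher and 3.98% as lower. *Ctse* gave 10 of the calls, all lower in NZB. The other 7 genes gave 18 of 92 (19.6%), with a median log2 fold of 0.016 beside -0.003 over all genes. Because the filter depends on the levels, these counts describe the tests made and not every member in every class.

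**Figure D2:**
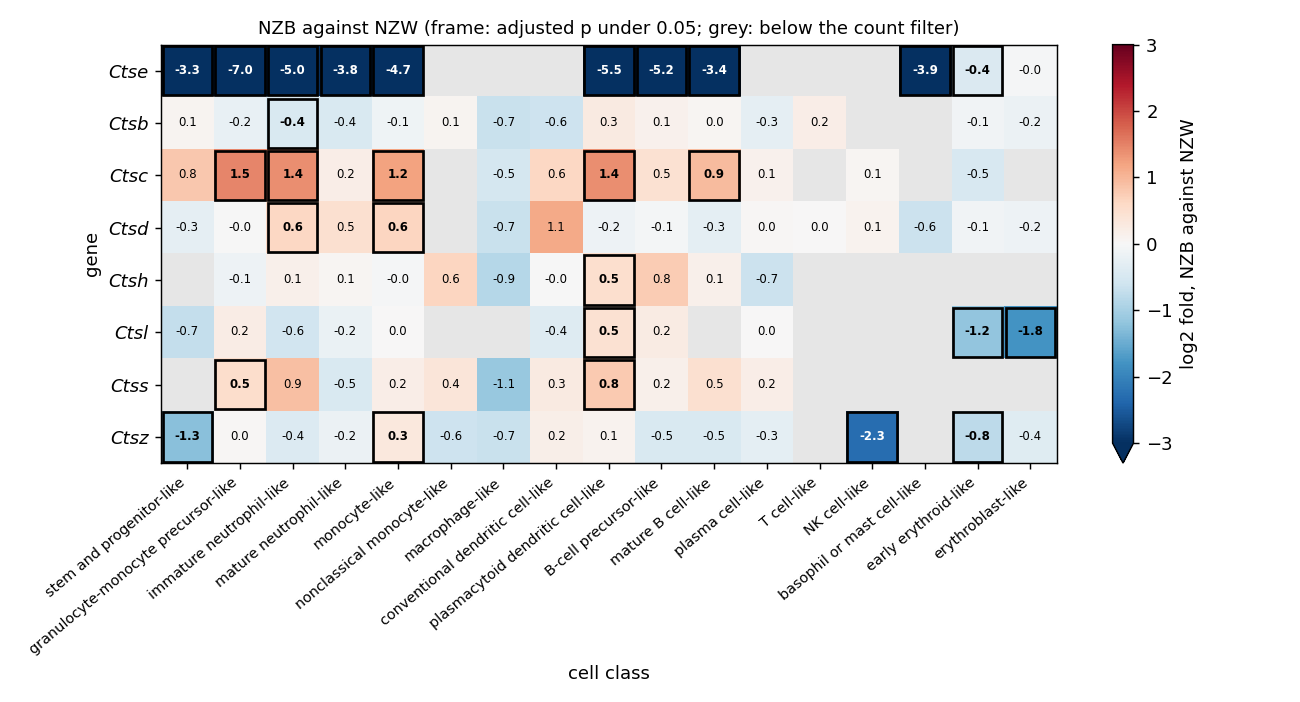
Fitted log2 fold of NZB against NZW for each cathepsin (rows) and class (columns), framed where the adjusted p was under 0.05 and grey where the count filter was not passed, with colors saturating at 3. *Ctse* is lower in NZB in 10 classes and near 0 in erythroblast-like cells, and *Ctsc* is higher in NZB in 5 classes.

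*Ctse* had few transcripts in most leukocyte classes of NZB, and in NZB erythroblast-like cells a level within the range of the other strains or just below it. In monocyte-like cells it stood at 2.55, 2.75, and 1.08 CPM in the 3 NZB mice, 59.5, 61.4, and 66.0 CPM in NZW, and 23.4, 27.3, and 29.1 CPM in NZBWF1. The strains did not overlap, and the hybrid lay between the parents. The counts behind them were 8 UMIs in NZB and 296 in NZW, a ratio of NZW to NZB of 27.6 (95% interval 13.8 to 64.7, exact, counting error only), with an edgeR adjusted p of 1.46e-16. In monocyte-like cells 21.7% of all genes passed.

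Neutrophil and precursor classes had the same order of mean levels. In immature neutrophil-like cells, where 13.4% of all genes passed, *Ctse* was at 1.10, 4.30, and 2.36 CPM in NZB, 108, 96.6, and 115 CPM in NZW, and 64.5, 54.3, and 61.1 CPM in NZBWF1 (NZB against NZW, log2 fold -5.04 ± 0.20 SE, adjusted p = 7.40e-23). Mature neutrophil-like cells held 8.81, 13.4, and 14.9 CPM in NZB, 209, 180.3, and 238 CPM in NZW, and 137, 106, and 93.8 CPM in NZBWF1 (log2 fold -3.83 ± 0.24 SE, adjusted p = 9.00e-09). Again no NZB mouse reached the range of another strain. In granulocyte-monocyte precursor-like cells the NZB mice held 2 UMIs together and the NZW mice 233, a ratio of 141 (95% interval 38.7 to 1174, adjusted p = 4.12e-20). Stem and progenitor-like cells held 13.6 ± 5.82 CPM in NZB and 138 ± 35.5 CPM in NZW (log2 fold -3.33 ± 0.42 SE, adjusted p = 7.09e-11). Summed markers of other cells varied in this class, with those of early erythroid cells at 57.0 to 202 CPM in NZB and 201 to 536 CPM in NZW, those of immature neutrophils at 79.8 to 203 CPM in NZB and 168 to 2902 CPM in NZW, and those of monocytes at 39.9 to 64.7 CPM in NZB and 135 to 183 CPM in NZW. Those of mature neutrophils were at 143 to 309 CPM in NZB and 128 to 177 CPM in NZW. In monocyte-like cells markers of erythroblasts, the class richest in *Ctse*, summed to 2.55 to 8.23 CPM in NZB and 10.1 to 20.5 CPM in NZW. Their part in the *Ctse* values was not tested.

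The gap extended to dendritic and B-lineage classes. In plasmacytoid dendritic cell-like cells, where 8.38% of all genes passed, *Ctse* was at 0, 3.43, and 6.25 CPM in NZB, 149.9, 201, and 147 CPM in NZW, and 139, 86.1, and 107 CPM in NZBWF1. The ratio of NZW to NZB was 53.5 (95% interval 22.2 to 168, adjusted p = 3.80e-18). B-cell precursor-like cells held 3 UMIs in NZB and 675 in NZW, a ratio of 37.7 (95% interval 12.8 to 183, adjusted p = 3.13e-11), and mature B cell-like cells 5 and 220, a ratio of 11.5 (95% interval 4.87 to 35.9, adjusted p = 1.06e-05). Basophil or mast cell-like cells held 2 and 27 UMIs (adjusted p = 0.00264), a call lost without NZB mouse 2 or 3 (adjusted p from 0.056 to 0.13).

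In 6 classes *Ctse* was below the count filter and had no test. Conventional dendritic cell-like cells held 0 UMIs in NZB and 33 in NZW, at least 4.0-fold higher in NZW against a floor of 3 UMIs over the strain, a bound that takes the NZW count as exact, and 3.08-fold at the lower 95% limit with counting error in both strains. Markers of erythroblasts were at 0 in NZB and 9.01 to 46.2 CPM in NZW in that class, and their part was not tested. T cell-like cells held 3 and 32 UMIs (ratio 11.6, 95% interval 3.64 to 59.3) and NK cell-like cells 2 and 29 (ratio 16.5, 95% interval 4.17 to 143). Nonclassical monocyte-like cells held 1 and 15 (ratio 9.47, 95% interval 1.46 to 399) and plasma cell-like cells 15 and, in 2 NZW mice, 17 (ratio 4.79, 95% interval 2.25 to 10.3). Macrophage-like cells, with 9 and 15 UMIs, had a ratio of 1.25 whose interval covers equality (0.514 to 3.25). Marker sums of erythroblasts in that class, given above by strain, reached their highest value in NZB, and their part was not tested.

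In erythroid cells the parents lay closer. In erythroblast-like cells *Ctse* was at 782, 856, and 821 CPM in NZB, 877, 874, and 801 CPM in NZW, and 986, 866, and 800.0 CPM in NZBWF1. The ranges of the parents overlapped, with a log2 fold of -0.037 ± 0.11 SE (adjusted p = 0.932) and, on 1145 and 3282 UMIs, a ratio of NZW to NZB of 1.02 (95% interval 0.957 to 1.10). The class's own markers summed to 2735 to 3038 CPM in NZB, 3539 to 3632 CPM in NZW, and 2384 to 3458 CPM in NZBWF1. Their part in the near equality was not tested. Early erythroid-like cells, where 6.25% of all genes passed, held 239, 328, and 273 CPM in NZB, 456, 383, and 348 CPM in NZW, and 398, 371, and 339.6 CPM in NZBWF1. NZB was lower (log2 fold -0.42 ± 0.11 SE, adjusted p = 0.00577), which was lost without NZB mouse 1 or NZW mouse 1 (adjusted p from 0.0621 to 0.0847). Markers of erythroblasts summed to 732 to 792 CPM in NZB and 945 to 1027 CPM in NZW in this class, and their part in the call was not tested.

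**Figure D3:**
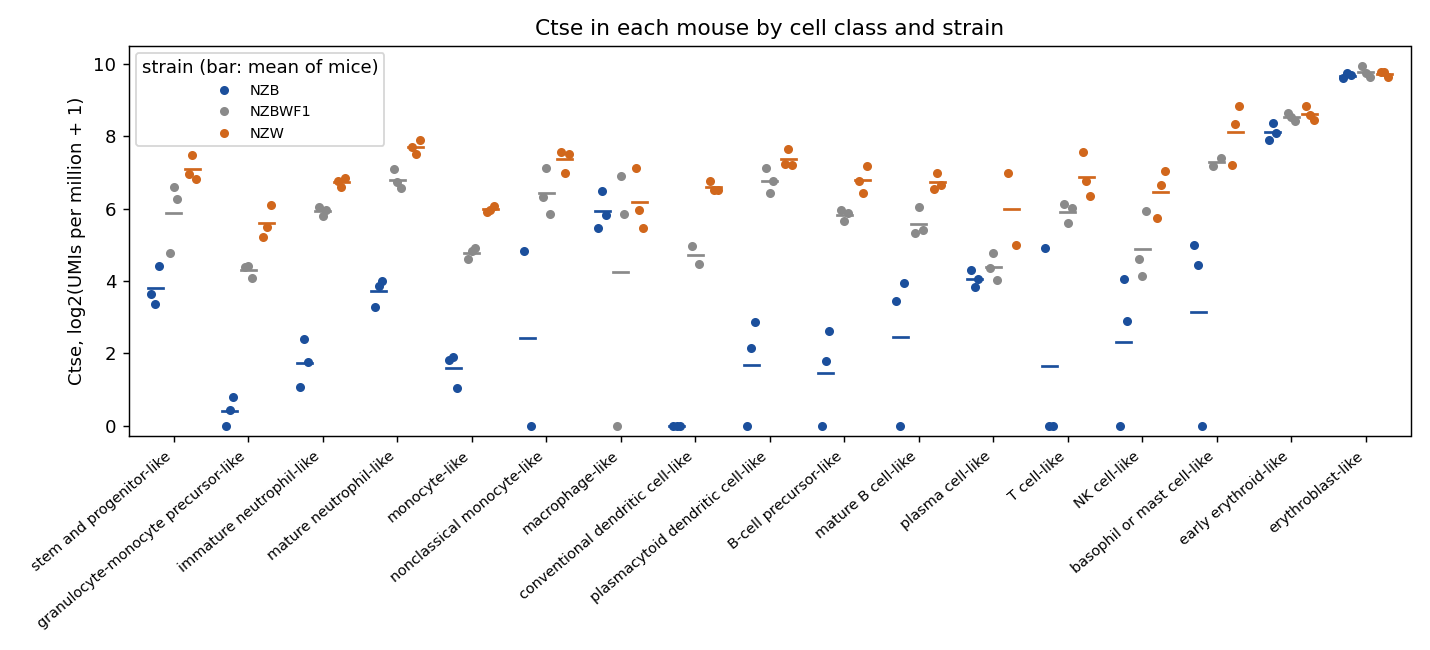
*Ctse* in each mouse (points) and the mean of mice (bars) as log2(CPM + 1) in 17 cell classes, colored by strain. NZB mice lie below the other strains in the precursor, neutrophil, monocyte, plasmacytoid dendritic, and B-cell classes, and beside them in erythroblast-like cells.

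The gap was set beside that in early erythroid-like cells, a reference chosen after the values were seen, so the differences are given as a description. In each mouse the log2 level of *Ctse* in another class was subtracted from that in early erythroid-like cells. Against monocyte-like cells the difference was 6.53 ± 0.49 (SD) in NZB, 2.64 ± 0.27 in NZW, and 3.75 ± 0.27 in NZBWF1. Its mean was greater for NZB than for NZW in 14 of the 16 other classes, by 1.53 with plasma cell-like to 6.09 with conventional dendritic cell-like cells. Of these 14, 5 were below the count filter, and 4 of the 5 held 0 to 3 UMIs in NZB. NZB minus NZW was -0.25 with macrophage-like and -0.45 with erythroblast-like cells. Whether sequence differences between the strains and the reference moved counts was not tested.

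Free RNA was measured in barcodes with fewer than 100 UMIs, where *Ctse* made up 45.7 to 82.4 CPM in NZB, 138 to 174 CPM in NZW, and 82.1 to 109 CPM in NZBWF1. From it 1.21 UMIs were expected in NZB monocyte-like cells, where 8 were counted, and 1.2 in NZB granulocyte-monocyte precursor-like cells, where 2 were counted. In NZW monocyte-like cells 5.68 were expected and 296 counted.

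The hybrid was then compared with each parent. Across the 8 genes 16 tests passed between NZBWF1 and NZB, where 3.49% of all tests passed, and 8 between NZBWF1 and NZW, where 1.04% passed, and the comparisons share the NZBWF1 mice. The second count was 5 without NZW mouse 1, 5 without NZW mouse 3, and 5 without NZBWF1 mouse 3. *Ctse* was higher than in NZB in 8 classes and lower than in NZW in 6. In monocyte-like cells its log2 fold was 3.51 ± 0.36 SE against NZB (adjusted p = 1.65e-09) and -1.22 ± 0.17 SE against NZW (adjusted p = 6.78e-06). In immature neutrophil-like cells the folds were 4.18 ± 0.23 SE (adjusted p = 3.58e-18) and -0.86 ± 0.12 SE (adjusted p = 4.43e-06).

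Some of these *Ctse* calls missed the threshold on fewer mice, with folds near those of all mice. The one above NZB in stem and progenitor-like cells (2.39 with all mice) was 1.99 without NZBWF1 mouse 2 (adjusted p = 0.107). That in mature B cell-like cells (2.2) was 2.29 without NZB mouse 1 and 1.78 without NZB mouse 2 (adjusted p from 0.0799 to 0.101). The one below NZW in mature neutrophil-like cells (-0.93) ran from -0.94 to -0.81 without NZB mouse 3, NZW mouse 1 or 3, or NZBWF1 mouse 2 or 3 (adjusted p from 0.0567 to 0.255), and that in mature B cell-like cells (-1.22) missed without NZW mouse 2 or NZBWF1 mouse 3 (adjusted p from 0.084 to 0.0888).

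When the reference was the mean of the parents' logs, 8 tests passed, 6 higher and 2 lower, where 0.548% of all tests passed, 0.392% as higher and 0.156% as lower. The count was 5 without NZBWF1 mouse 1 and 5 without NZBWF1 mouse 2. The 6 higher were all *Ctse*, and 3 of them were lost when single mice were left out. In mature neutrophil-like cells this held for any NZB mouse, NZW mouse 3, and NZBWF1 mice 1 and 2 (adjusted p from 0.06 to 0.164), in monocyte-like cells for NZBWF1 mice 2 and 3 (adjusted p from 0.0527 to 0.0582), and in B-cell precursor-like cells for any NZB mouse and NZBWF1 mouse 1 (adjusted p from 0.05001 to 0.308). Other settings also ended calls. That in mature neutrophil-like cells (0.98) was lost with clusters (1.01, adjusted p = 0.0886), doublets kept (0.96, adjusted p = 0.0735), and at 2000 UMIs (0.42, adjusted p = 0.998). That in monocyte-like cells (1.15) was lost with DESeq2 (1.16, adjusted p = 0.0665) and without dividing cells (1.51, adjusted p = 0.159). The call in B-cell precursor-like cells (1.57) missed the threshold in 8 of 21 alternative runs, the mouse omissions above among them, and its sign reversed in 1. The call in granulocyte-monocyte precursor-like cells (1.99) was lost with DESeq2 (2.12, adjusted p = 0.0927) and with doublets kept (1.11, adjusted p = 0.119), and that in plasmacytoid dendritic cell-like cells (2.15) with cells of at least 2000 UMIs and 1000 genes (1.81, adjusted p = 0.814). Against the arithmetic mean of the parents 2 of 94 tests passed, both of *Ctsc*, where 0.331% of all tests passed. For this test each NZB mouse was summed with the NZW mouse of the same replicate number, after random thinning to equal totals. The 3 sums stood as replicates against the NZBWF1 mice. The labels give this pairing no meaning, and other pairings and draws were not tried. A mean of logs is low where a parent is near 0, as NZB is for *Ctse*, and 4 of the 6 *Ctse* folds turned negative against the arithmetic mean.

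The ratio of the NZBWF1 level of *Ctse* to that arithmetic mean was 1.10 ± 0.077 (SE) in immature neutrophil-like, 1.01 ± 0.14 in mature neutrophil-like, 0.986 ± 0.16 in B-cell precursor-like, and 1.31 ± 0.23 in plasmacytoid dendritic cell-like cells. It was 0.754 ± 0.15 in granulocyte-monocyte precursor-like cells. In 14 of 17 classes it lay within 2 SE of 1, and it was further below 1 in monocyte-like (0.825 ± 0.058), conventional dendritic cell-like (0.537 ± 0.10), and plasma cell-like cells (0.437 ± 0.23). In monocyte-like cells the edgeR log2 fold against the arithmetic mean did not pass (-0.34 ± 0.18 SE, adjusted p = 0.422). The conventional dendritic cell-like ratio rests on 0 UMIs in NZB and 5 in 2 NZBWF1 mice. The plasma cell-like ratio rests on 17 UMIs in 2 NZW mice.

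**Figure D4:**
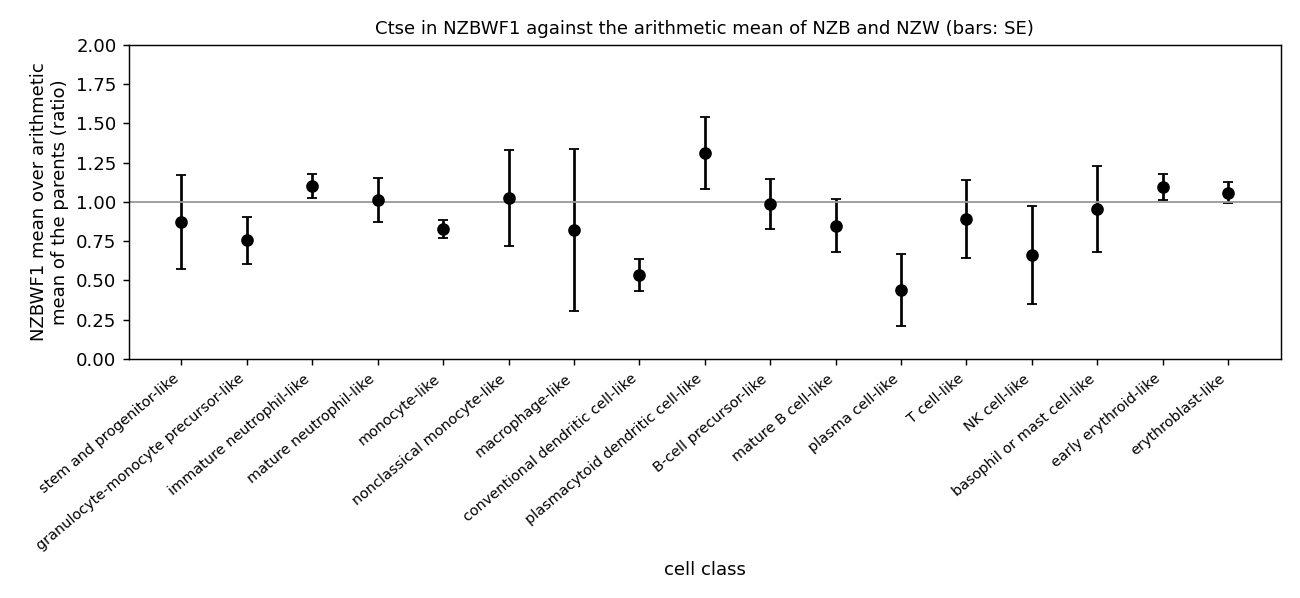
Ratio of the NZBWF1 mean CPM of *Ctse* to the arithmetic mean of NZB and NZW in 17 cell classes, with bars of 1 SE from the spread between mice and a line at 1. The points run from 0.437 in plasma cell-like to 1.31 in plasmacytoid dendritic cell-like cells.

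The genes most like *Ctse*, by Pearson r of log2(CPM + 1) over 51 class-by-strain means among 11764 genes, were *Gstm5* (r = 0.714), *Stx2* (0.654), *Ftl1-ps1* (0.645), *Dcaf6* (0.632), and *Pcna-ps2* (0.624). The points share libraries, and r is a description. *Gstm5*, a glutathione transferase, was abundant in erythroblast-like cells of each strain, at 352 CPM in NZB and 397 CPM in NZW, as *Ctse* was. *Ftl1-ps1* and *Pcna-ps2* are annotated as pseudogenes that can share reads with their parent genes, so their values are uncertain.

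*Ctsd*, the other aspartic cathepsin, was higher in NZB in 2 myeloid classes. In monocyte-like cells it was at 238, 253, and 218 CPM in NZB, 144, 170.0, and 142 CPM in NZW, and 187, 148, and 180.2 CPM in NZBWF1 (NZB against NZW, log2 fold 0.64 ± 0.11 SE, adjusted p = 2.79e-05). All NZB mice lay above all other mice. Immature neutrophil-like cells held 152, 160.4, and 136 CPM in NZB, 113, 96.6, and 111 CPM in NZW, and 121, 109, and 124 CPM in NZBWF1 (log2 fold 0.62 ± 0.11 SE, adjusted p = 4.14e-05). NZBWF1 was lower than NZB in both, with log2 folds of -0.52 ± 0.11 SE (adjusted p = 0.00144) and -0.51 ± 0.11 SE (adjusted p = 0.00251). In macrophage-like cells, the class richest in *Ctsd*, the mice spread over 2045, 1316, and 798 CPM in NZB and 2130, 2329, and 1747 CPM in NZW, and the parents did not pass.

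*Ctsc*, whose product activates granule serine proteases, was higher in NZB in 5 of 13 classes tested. In granulocyte-monocyte precursor-like cells it stood at 262, 279.5, and 233 CPM in NZB, 87.6, 86.3, and 86.3 CPM in NZW, and 100.3, 108, and 114 CPM in NZBWF1 (NZB against NZW, log2 fold 1.46 ± 0.12 SE, adjusted p = 3.47e-15). Monocyte-like cells held 679, 979, and 827 CPM in NZB, 356, 354, and 378 CPM in NZW, and 414, 417, and 387 CPM in NZBWF1 (log2 fold 1.2 ± 0.11 SE, adjusted p = 1.45e-11). In both the hybrid lay near NZW and well below NZB. Plasmacytoid dendritic cell-like cells held 187 ± 15 CPM in NZB, 74.0 ± 14.8 CPM in NZW, and 112 ± 14.6 CPM in NZBWF1 (log2 fold 1.39 ± 0.21 SE, adjusted p = 1.01e-06). Mature B cell-like cells held 242 ± 37.0, 133 ± 17.2, and 163 ± 27.4 CPM in the same order (log2 fold 0.94 ± 0.19 SE, adjusted p = 0.00324). The fifth call concerned 4.87 against 2.02 CPM in immature neutrophil-like cells (adjusted p = 0.0326) and was lost without NZB mouse 1 or 2 or NZW mouse 1 or 2 (adjusted p from 0.0821 to 0.165).

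NZBWF1 was lower than NZB in *Ctsc* in granulocyte-monocyte precursor-like (log2 fold -1.24 ± 0.11 SE, adjusted p = 3.29e-12), monocyte-like (-1.06 ± 0.11 SE, adjusted p = 1.65e-09), and plasmacytoid dendritic cell-like cells (-0.79 ± 0.16 SE, adjusted p = 0.00116). The last was lost with DESeq2 (-0.79, adjusted p = 0.0526). A further call, in mature B cell-like cells (adjusted p = 0.0367), was lost without any NZB or NZW mouse or NZBWF1 mouse 3 (adjusted p from 0.054 to 0.203). With these included, it missed the threshold in 11 of 20 alternative runs. Measured from the mean of the parents' logs, the hybrid was lower in granulocyte-monocyte precursor-like (-0.51 ± 0.11 SE, adjusted p = 0.00606) and monocyte-like cells (-0.47 ± 0.096 SE, adjusted p = 0.00309), and against the arithmetic mean the log2 folds were -0.69 ± 0.10 SE (adjusted p = 0.000249) and -0.57 ± 0.092 SE (adjusted p = 7.44e-05). Against the mean of logs the first was lost without NZBWF1 mouse 1 or 2 (adjusted p from 0.0578 to 0.11) and the second without NZBWF1 mouse 3 (adjusted p = 0.0569).

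**Figure D5:**
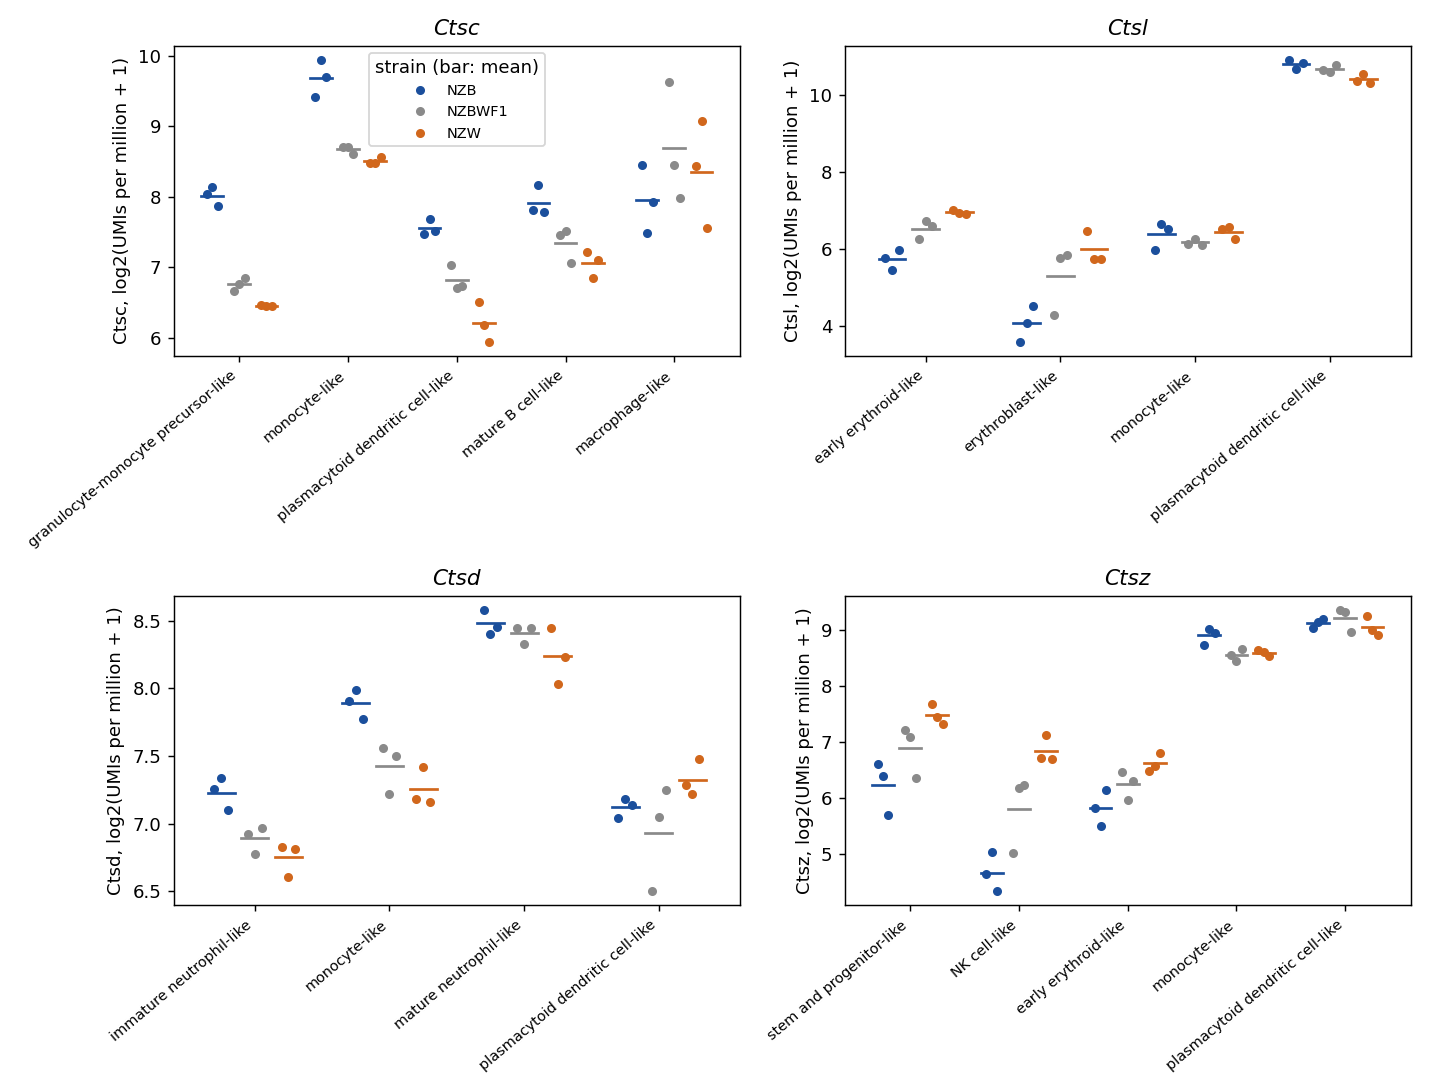
*Ctsc*, *Ctsl*, *Ctsd*, and *Ctsz* in each mouse (points) and the mean of mice (bars) as log2(CPM + 1) in selected classes, colored by strain, with vertical scales that differ between panels and do not start at 0. *Ctsc* is highest in NZB in 4 of the 5 classes shown, and *Ctsl* and *Ctsz* are lowest in NZB in early erythroid-like cells and highest in NZB in plasmacytoid dendritic cell-like and monocyte-like cells, respectively.

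Cells with 2 or more UMIs of division genes were 69.6 ± 11% of the monocyte-like class for NZB, 41.4 ± 0.790% for NZW, and 38.8 ± 4.15% for NZBWF1. Without them the log2 folds of NZB against NZW in monocyte-like cells were 0.95 for *Ctsc* (adjusted p = 8.04e-09), 0.72 for *Ctsd* (adjusted p = 0.000845), and 0.44 for *Ctsz* (adjusted p = 0.0169), and *Ctse* also passed (adjusted p = 2.73e-12). The limit of 2 UMIs was not scaled to depth. Median UMIs per monocyte-like cell, averaged over mice, were 3062 in NZB, 2013 in NZW, and 2060 in NZBWF1, and their part in these shares was not tested.

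*Ctsl*, a cysteine endopeptidase, differed between the parents in opposite directions in erythroid and plasmacytoid dendritic cell-like cells. Early erythroid-like cells held 52.8, 42.8, and 61.7 CPM in NZB, 128, 122, and 118 CPM in NZW, and 75.4, 104, and 95.5 CPM in NZBWF1 (NZB against NZW, log2 fold -1.19 ± 0.14 SE, adjusted p = 6.26e-09). The strains did not overlap, and NZBWF1 exceeded NZB (log2 fold 0.87 ± 0.15 SE, adjusted p = 0.000166). Erythroblast-like cells held 11, 15.9, and 22.0 CPM in NZB and 87.4, 52.2, and 52.6 CPM in NZW (log2 fold -1.79 ± 0.32 SE, adjusted p = 9.21e-05). Sums of erythroblast markers in both erythroid classes, given above, were lower in NZB than in NZW, and their part in these folds was not tested. In plasmacytoid dendritic cell-like cells NZB was higher, at 1921, 1620, and 1835 against 1319, 1489, and 1258 CPM (log2 fold 0.45 ± 0.10 SE, adjusted p = 0.00137). Dividing cells made up 5.70 ± 0.396% of this class in NZB and 17.4 ± 6.97% in NZW, and without them the call was lost (log2 fold 0.24, adjusted p = 0.18). The log2 difference between plasmacytoid dendritic cell-like and early erythroid-like cells was 5.08 ± 0.18 (SD) in NZB, 3.45 ± 0.13 in NZW, and 4.15 ± 0.26 in NZBWF1, a pair of classes chosen after the values were seen and given as a description.

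*Ctss*, the protease of late invariant chain removal, was higher in NZB plasmacytoid dendritic cell-like cells, at 811, 838, and 839 CPM against 464, 613, and 409 CPM in NZW (log2 fold 0.79 ± 0.12 SE, adjusted p = 2.54e-06). NZBWF1, at 840.1, 675, and 649 CPM, exceeded NZW (log2 fold 0.54 ± 0.13 SE, adjusted p = 0.00698), a call lost without NZW mouse 1 or 3 (adjusted p from 0.0535 to 0.184) and without dividing cells (adjusted p = 0.532). In granulocyte-monocyte precursor-like cells *Ctss* was at 60.0, 59.8, and 50.3 CPM in NZB and 25.4, 35.6, and 47.2 CPM in NZW (adjusted p = 0.0272). This was lost without NZB mouse 1 or 2 or NZW mouse 1 or 2 (adjusted p from 0.0539 to 0.216), and with clusters in place of gates the log2 fold was -0.355 (adjusted p = 0.249). In immature neutrophil-like cells NZBWF1 exceeded NZW at 7.31 against 3.13 CPM (adjusted p = 0.0438), lost without any NZW mouse or NZBWF1 mouse 2 or 3 (adjusted p from 0.0627 to 0.294). It was also lost with DESeq2 (1.26, adjusted p = 0.3145) and with clusters (0.61, adjusted p = 0.604). A stricter gate (1.14, adjusted p = 0.1585) and cells of at least 2000 UMIs and 1000 genes (1.51, adjusted p = 0.157) ended it too. In nonclassical monocyte-like cells, where *Ctss* was highest, it stood at 2511 and 2334 CPM in the 2 NZB mice with enough cells and 1561, 2059, and 2002 CPM in NZW (adjusted p = 0.703).

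*Ctsh*, an aminopeptidase, passed in 1 of 11 classes tested. In plasmacytoid dendritic cell-like cells it was at 1422, 1485, and 1456 CPM in NZB, 1034, 1100, and 1077 CPM in NZW, and 1188, 1218, and 1234 CPM in NZBWF1 (NZB against NZW, log2 fold 0.49 ± 0.10 SE, adjusted p = 0.000379). The strains did not overlap, and without dividing cells the fold was 0.29 (adjusted p = 0.0833). *Ctsb*, a carboxypeptidase and endopeptidase, passed in 1 of 15 classes. In immature neutrophil-like cells it was at 64.5, 52.8, and 53.0 CPM in NZB, 77.7, 85.2, and 89.8 CPM in NZW, and 70.0, 82.1, and 82.9 CPM in NZBWF1 (log2 fold -0.45 ± 0.12 SE, adjusted p = 0.00942). The parents did not overlap, and the call was lost without NZB mouse 2 or 3 (adjusted p from 0.0794 to 0.0797).

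*Ctsz*, a carboxypeptidase, was lower in NZB in 3 classes and higher in 1. NK cell-like cells held 24.0, 31.6, and 19.1 CPM in NZB, 104, 139, and 103 CPM in NZW, and 31.2, 71.8, and 74.1 CPM in NZBWF1. The parents did not overlap, on 8 and 35 UMIs (log2 fold -2.28 ± 0.58 SE, adjusted p = 0.0115), and the call was lost without NZB mouse 3 or NZW mouse 2 (adjusted p from 0.0885 to 0.115). Stem and progenitor-like cells held 76.9 ± 23.8 CPM in NZB and 179 ± 23.6 CPM in NZW (log2 fold -1.26 ± 0.27 SE, adjusted p = 0.000833, and 0.0503 without NZB mouse 3). Marker sums of other cells are given above for stem and progenitor-like cells, and in NK cell-like cells those of monocytes were at 719 to 820.3 CPM in NZB and 884 to 1158 CPM in NZW. Their part was not tested. Early erythroid-like cells held 55.2, 44.5, and 69.3 CPM in NZB and 88.8, 94.1, and 111 CPM in NZW (log2 fold -0.79 ± 0.15 SE, adjusted p = 0.00014).

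In monocyte-like cells *Ctsz* was higher in NZB, at 426, 523, and 498 CPM against 399.7, 391, and 371 CPM in NZW and 376, 349.8, and 406 CPM in NZBWF1. The log2 fold of NZB against NZW was 0.32 ± 0.10 SE (adjusted p = 0.0169) and was lost without NZB mouse 2 or NZW mouse 2 or 3 (adjusted p from 0.0593 to 0.174). That of NZBWF1 against NZB was -0.39 ± 0.10 SE (adjusted p = 0.00749) and was lost without NZB mouse 2 or NZBWF1 mouse 2 (adjusted p from 0.0784 to 0.109). The log2 difference between monocyte-like and early erythroid-like cells was 3.09 ± 0.38 (SD) in NZB and 1.98 ± 0.22 in NZW.

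Other settings also ended calls between the parents. With cells of at least 2000 UMIs and 1000 genes, the log2 folds in plasmacytoid dendritic cell-like cells were -4.06 for *Ctse* (adjusted p = 0.0714), 0.88 for *Ctsc* (adjusted p = 0.68), 0.61 for *Ctsh* (adjusted p = 0.289), 0.55 for *Ctsl* (adjusted p = 0.756), and 1.0 for *Ctss* (adjusted p = 0.543). Those of *Ctsh*, *Ctsl*, and *Ctss* were no smaller than with all cells, on fewer cells. *Ctsd* in immature neutrophil-like cells then had a fold of 0.41 (adjusted p = 0.0505), and *Ctsc* in mature B cell-like cells one of 1.12 (adjusted p = 0.0935). With DESeq2 the folds were close to those of edgeR and missed the threshold for *Ctsz* in stem and progenitor-like (-1.26, adjusted p = 0.0533) and NK cell-like cells (-2.30, adjusted p = 0.0968), *Ctsc* in immature neutrophil-like cells (1.43, adjusted p = 0.128), and *Ctss* in granulocyte-monocyte precursor-like cells (0.55, adjusted p = 0.115). With clusters in place of gates the folds were smaller for *Ctsz* in stem and progenitor-like (-0.44, adjusted p = 0.262) and *Ctsl* in plasmacytoid dendritic cell-like cells (0.25, adjusted p = 0.0983). A stricter gate gave -1.99 (adjusted p = 0.118) for *Ctsz* in NK cell-like cells, and free RNA subtraction 1.5 (adjusted p = 0.0556) for *Ctsc* in immature neutrophil-like cells.

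Calls of the hybrid against a parent were also lost. Against NZB, *Ctse* in stem and progenitor-like cells missed with DESeq2 (2.38, adjusted p = 0.0596) and a stricter gate (2.50, adjusted p = 0.213). At 2000 UMIs *Ctse* missed in mature neutrophil-like (1.58, adjusted p = 0.379), plasmacytoid dendritic cell-like (3.84, adjusted p = 0.291), and mature B cell-like cells (2.56, adjusted p = 0.287), as did *Ctsc* in plasmacytoid dendritic cell-like (-0.41, adjusted p = 0.987) and *Ctsz* in monocyte-like cells (-0.38, adjusted p = 0.0547). Against NZW, *Ctse* in mature neutrophil-like cells missed with DESeq2 (-0.93, adjusted p = 0.0555), clusters (-0.96, adjusted p = 0.0691), doublets kept (-0.90, adjusted p = 0.0944), and at 2000 UMIs (-0.73, adjusted p = 0.884), and *Ctss* in plasmacytoid dendritic cell-like cells with clusters (0.36, adjusted p = 0.152) and at 2000 UMIs (1.02, adjusted p = 0.571).

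Related genes were read beside the members. Of 6 other cathepsins, 4 passed the filter in some class, and 3 of 31 tests passed between the parents (9.68%, beside 7.96% of all tests), all lower in NZB, with a median log2 fold of -0.148. These were *Ctsa* (-0.34 ± 0.11 SE, adjusted p = 0.0235) and *Ctso* (-1.10 ± 0.31 SE, adjusted p = 0.00718) in monocyte-like cells and *Ctsg*, a granule protease of neutrophil precursors, in plasma cell-like cells (-4.31 ± 0.95 SE, adjusted p = 0.0188). In plasma cell-like cells markers of immature neutrophils summed to 56.6 to 3120 CPM in NZB and 144 to 2609 CPM in NZW. Their part in the last value, which rests on 2 NZW mice, was not tested. *Ctsw* was tested in 2 classes and did not pass, and *Ctsf* and *Ctsk* were below the filter.

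Of the cathepsin inhibitors, 7 of 66 tests passed between the parents (10.6%, beside 7.96% of all tests), 6 higher and 1 lower in NZB, with a median of 0.166. *Cst3*, cystatin C, was higher in NZB in 3 classes, among them B-cell precursor-like cells (0.71 ± 0.13 SE, adjusted p = 0.000389), and lower in macrophage-like cells (-1.2 ± 0.27 SE, adjusted p = 0.0143). *Cstb*, cystatin B (0.61 ± 0.10 SE, adjusted p = 2.11e-05), and *Serpinb1a*, an inhibitor of granule serine proteases (0.68 ± 0.13 SE, adjusted p = 0.000104), were higher in NZB monocyte-like cells. *Serpinb1a* was lower in NZBWF1 than in NZB in these cells (-0.85 ± 0.14 SE, adjusted p = 1.51e-05).

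Partners of class II loading passed in 9 of 55 tests (16.4%, beside 7.96% of all tests), 6 higher and 3 lower in NZB, with a median of 0.085. *H2-DMb2*, a chain of the peptide editor H2-DM, was higher in NZB granulocyte-monocyte precursor-like (1.88 ± 0.39 SE, adjusted p = 0.000343), monocyte-like (1.61 ± 0.31 SE, adjusted p = 0.000164), and plasmacytoid dendritic cell-like cells (3.28 ± 0.70 SE, adjusted p = 0.000523). *H2-DMb1* was higher in granulocyte-monocyte precursor-like cells (3.41 ± 0.34 SE, adjusted p = 1.30e-11), and reads of these close paralogs may be split between them. *Cd74*, the invariant chain that cathepsins cleave, was higher in NZB plasmacytoid dendritic cell-like cells (1.0 ± 0.10 SE, adjusted p = 3.87e-11).

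Other lysosomal proteins passed in 28 of 280 tests (10%, beside 7.96% of all tests), 9 higher and 19 lower in NZB, with a median of -0.103. *Man2b1*, lysosomal mannosidase, was higher in plasmacytoid dendritic cell-like (1.55 ± 0.18 SE, adjusted p = 6.23e-10) and early erythroid-like cells and lower in granulocyte-monocyte precursor-like cells (-0.66 ± 0.12 SE, adjusted p = 7.60e-05). *Cd68*, a lysosomal membrane protein of phagocytes, was higher in monocyte-like (0.38 ± 0.11 SE, adjusted p = 0.0143) and both neutrophil-like classes and lower in macrophage-like cells (-1.65 ± 0.35 SE, adjusted p = 0.0122).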

How the data were processed

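Droplet libraries of femur marrow from 9 mice were sequenced and processed by the authors with bcl2fastq 2.20 and Cell Ranger 3.1.0 against mm10. The authors deposited raw UMI counts per gene and barcode, with 31053 genes and 68444 barcodes, without normalization. Barcodes with at least 1000 UMIs, 500 genes, and at most 10% of UMIs from 13 mitochondrial genes were kept (39051), and 1458 with high scrublet doublet scores were removed. Gates required a leading marker score, 2263 cells with mixed markers and 1319 with none were left out, and 422 of those gated lay near a limit. Counts were summed per class and mouse, a mouse entered a class only with at least 10 cells there (1 mouse each fell short in nonclassical monocyte-like, conventional dendritic cell-like, basophil or mast cell-like, and plasma cell-like cells), and megakaryocyte-like cells (49) were not tested.

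Strains were compared with edgeR 4.0.16 (R 4.3.3) by the quasi-likelihood test with TMM, filterByExpr, and robust dispersion, a fit of 3 strains per class, and Benjamini-Hochberg adjustment over all genes of the class. The hybrid contrast had weights of -0.5, 1, and -0.5. The script was tested on simulated counts. DESeq2 1.42.0, another scaling, no filter, Leiden clusters, other cell limits, free RNA subtraction, a block for replicate number, and omission of single mice were alternatives. The 8 cathepsins, the related lists, and the tests were chosen with earlier results of these data known. Named from the lists were the other cathepsins and, per list, the 3 genes called in most classes between the parents, with ties broken by p, and for *Ctse* the 5 genes of highest r with at least 100 UMIs. A gene that this rule names from the list of other lysosomal proteins is counted but not reported here. Samples of a strain are separate mice, and the study's methods mention batches without saying, in the sources used here, which mice shared one. Intervals and floors (3 UMIs) cover counting error only.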

Additional observations from a re-analysis of the deposited data

Results flagged for a closer look

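The results below drew attention because the difference between classes was itself different among strains, by exact permutation of mice over 21 comparisons whose class pairs were chosen after the values were seen. Listed are those with an adjusted p under 0.05 in that test, so the list was cut by it. The p-values would restate the values that prompted them, so they are not given and the sizes are a description. Each value is the NZB minus the NZW mean of a log2 difference between 2 classes in the same mouse. For *Ctse*, early erythroid-like minus another class, it was 2.79 with stem and progenitor-like, 4.70 with granulocyte-monocyte precursor-like, 4.50 with immature neutrophil-like, 3.50 with mature neutrophil-like, and 3.89 with monocyte-like cells. It was 4.33 with nonclassical monocyte-like, 6.09 with conventional dendritic cell-like, and 5.20 with plasmacytoid dendritic cell-like cells. Among lymphoid classes it was 4.83 with B-cell precursor-like, 3.77 with mature B cell-like, 1.53 with plasma cell-like, 4.75 with T cell-like, and 3.66 with NK cell-like cells. With classes whose NZB mice include 0 UMIs these sizes depend on the pseudocount of 1 CPM. With erythroblast-like cells the value was -0.45. The comparisons with macrophage-like (-0.25) and basophil or mast cell-like cells (4.49) did not pass.

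For *Ctsl*, plasmacytoid dendritic cell-like minus early erythroid-like cells gave 1.63 and minus erythroblast-like cells 2.32. For *Ctsz*, monocyte-like minus stem and progenitor-like cells gave 1.56, minus NK cell-like cells 2.49, and minus early erythroid-like cells 1.11.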

How the results depend on the processing

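Of 60 cathepsin calls, 26 passed with the same sign in every alternative run that gave them a test, and 34 missed the threshold in at least 1. The runs that gave a call a test numbered 14 to 21, so some of the 26 had no test in a run. The counts that follow are all calls or pairs of a run, new ones included. Between NZB and NZW the 28 calls became 19 at 2000 UMIs and 1000 genes per cell (18 of them among the 28) and 23 with DESeq2. They became 16 without dividing cells (14 of them among the 28), where 57 tests remained, and 23 to 32 on leaving out a mouse. With the mean of the parents' logs as reference, the 8 calls became 4 with DESeq2, 2 against the arithmetic mean, 5 at 2000 UMIs and 1000 genes per cell, 4 without dividing cells, and 5 to 8 on leaving out a mouse. Between NZBWF1 and NZW the 8 calls became 5 at 2000 UMIs, 6 with DESeq2, 5 without dividing cells, and 5 to 9 on leaving out a mouse, and between NZBWF1 and NZB the 16 became 11 at 2000 UMIs, 12 without dividing cells, 13 with DESeq2, and 14 to 18 on leaving out a mouse. At 2000 UMIs the plasmacytoid dendritic cell-like calls were lost. The 14 neighbouring pairs became 28 with clusters, 9 with a stricter gate, 24 without dividing cells, 24 with at least 20 cells, and 0 to 9 on leaving out a mouse. The 76 calls of related lists became 49 with DESeq2. Reversed folds were *Ctss* in granulocyte-monocyte precursor-like cells between the parents with clusters (-0.355) and, against the arithmetic mean, *Ctse* in granulocyte-monocyte precursor-like (-0.43), mature neutrophil-like (-0.14), monocyte-like (-0.34), and B-cell precursor-like cells (-0.095). The causes were not tested, and settings that leave out cells or mice rest on fewer counts.

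The labels do not say that a replicate number marks a shared batch or day. Over all gated cells, same-numbered mice of different strains had correlations of -0.15 to 0.455 in 9 pairs, 7 of them over 0.1. Within single classes the pairs over 0.1 ran from 0 to 8 of 9. They were 0 in granulocyte-monocyte precursor-like, monocyte-like, plasmacytoid dendritic cell-like, and erythroblast-like cells, 6 in mature neutrophil-like cells, and 8 in T cell-like cells. With the replicate number as a block the counts were 30 between NZB and NZW, 8 against the mean of logs, 18 against NZB, and 8 against NZW.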
